A study of Mus musculus with 12 samples.

Results

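The genes described here belong by name to families of proteins that place, remove or read chemical marks on histones, or to the Polycomb group. Not every one acts on histones: Sirt3 and Sirt4, for example, are mitochondrial. Members were taken by symbol from the counted genes. They were every Hdac, Sirt, Kdm, Kmt, Kat, Setd, Ezh or Brd symbol followed by a number, plus Suz12, Eed, Rbbp4, Crebbp, Ep300, Ring1, Rnf2 and Bmi1. Kdm5c, Kdm5d and Kdm6a, which lie on the sex chromosomes, were left out. The choice used names and no measured value, though earlier results of these data were known, and gave 71 of the 23282 listed genes. By class these were 14 SET methyltransferases, 15 lysine demethylases, 9 acetyltransferases, 7 bromodomain genes, 8 Polycomb genes, 5 deacetylases of classes I and IV, 6 of class II and 7 sirtuins.

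RNAseq compared R6/2 HD mice with WT mice in 2 brain regions, striatum and cortex, and at 2 ages. In the R6/2 line a human HTT exon 1 fragment with a long CAG repeat is expressed from a transgene, and the mouse Htt gene is kept. HD mice were sampled at 8 weeks, labelled pre-symptomatic, and at 13 weeks, labelled post-symptomatic, with 2 libraries for each region at each age. WT mice were sampled at the same ages with 1 library for each region. As far as the labels state, the groups differed in genotype, age and region alone, and no drug or other agent was given.

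Acetyltransferases such as CBP and p300 (Crebbp, Ep300) place acetyl groups that open chromatin, bromodomain proteins bind acetylated histones, and deacetylases and sirtuins take the groups off again. SET methyltransferases write methyl marks that lysine demethylases erase. Polycomb complexes keep genes silent: PRC2, with the catalytic subunits Ezh1 and Ezh2 and the partners Suz12, Eed and Rbbp4, methylates histone H3, and PRC1, with Ring1, Rnf2 and Bmi1, marks histone H2A. Transcription and chromatin control have long been studied in HD, in part because mutant huntingtin binds CBP.

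The 12 libraries held between 8814386 and 12091201 counts. The ribosomal RNA precursor Rn45s took 10.5% to 15.2% of counts in the HD libraries and 4.32% to 5.62% in the WT libraries. This share thus moved with genotype. With Rn45s left out of the counts each comparison called the same number of members. That step removes 1 gene, and what lies behind the difference in share was not tested. Levels are given as CPM, counts scaled to library size by TMM to correct for differences in composition. Because the kit reads the 3′ end of each transcript, a level does not scale with gene length and genes can be set side by side. The labels name no animal, so errors measure the spread between libraries, which may be partly technical. Read counts of Xist and of Y-linked genes put replicate 1 of each HD group as male and replicate 2 as female, the 13-week WT libraries as female and the 8-week WT libraries as male, so age and sex coincide in WT mice. One library stood apart. The 8 oligodendrocyte markers summed to 21008 CPM in replicate 2 of pre-symptomatic HD striatum, against 2375 to 7292 CPM in the others, and its 9 striatal projection neuron markers to 2308 CPM against 7331 CPM in replicate 1. Its 4 thalamic markers summed to 1823 CPM, against 87.1 to 292 CPM elsewhere. The 4 choroid plexus markers summed to 2990 CPM in replicate 2 of post-symptomatic HD cortex and 945 CPM in replicate 2 of pre-symptomatic HD striatum. They summed to 67.4 to 110.2 CPM in the other post-symptomatic HD libraries and 1.76 to 7.82 CPM in the rest. The other libraries matched their labelled region, with striatal markers at 1385 to 7733 CPM in striatum and 134 to 373 CPM in cortex. In post-symptomatic HD striatum these markers summed to 1385 and 1410 CPM, against 7733 CPM in WT striatum of that age.

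As a class, SET methyltransferases were the most abundant, with a median summed level of 1409 CPM over the 8 HD libraries and 1185 CPM over the 4 WT libraries. Kmt2e, an MLL-family protein, had the highest mean of any member at 365 CPM over the 12 libraries and Setd4 the lowest of its class at 4.52 CPM. Bromodomain genes followed at 923 CPM in HD and 818 CPM in WT, from Brd2, a reader of acetylated histones, at 340.2 CPM down to Brd7 at 55.3 CPM. Acetyltransferases summed to 558 CPM in HD and 434 CPM in WT. Crebbp led them at 181 CPM and Kat8, the enzyme for lysine 16 of histone H4, was lowest at 12.8 CPM. Both the SET and acetyltransferase sums were higher in 7 of 8 HD libraries than in any WT library, though the SET sums of the 8-week HD cortex libraries, 1292.9 and 1293 CPM, barely passed the highest WT sum, 1291 CPM. Over raw library totals without TMM the SET sum was higher in 4 of 8 HD libraries, all at 13 weeks, and the acetyltransferase sum in 6 of 8. The bromodomain sum was higher than in any WT library in 6 of 8 HD libraries (4 of 8 over raw totals) and lower in 1.

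The other classes overlapped more between genotypes. Lysine demethylases summed to 525 CPM in HD and 480 CPM in WT, with Kdm2a highest at 84.3 CPM and Kdm4d lowest of all members at 0.777 CPM. Polycomb genes summed to 384 CPM in HD and 363 CPM in WT. Rbbp4, a histone-binding protein shared with deacetylase complexes, contributed 182 CPM and the ubiquitin ligase Ring1 7.10 CPM. Deacetylases of class II summed to 211 CPM in HD and 205 CPM in WT, with Hdac5 at 83.1 CPM and Hdac10 at 5.16 CPM. Those of classes I and IV summed to 201 CPM in HD and 195 CPM in WT, with Hdac11, the class IV enzyme, at 87.9 CPM and the X-linked Hdac8 at 11.5 CPM. Sirtuins, which need NAD, were the least abundant class at 154 CPM in HD and 171 CPM in WT. Sirt2, a deacetylase abundant in oligodendrocytes, held most of that sum at 89.7 CPM and mitochondrial Sirt4 the least at 1.91 CPM. The sirtuin sum was lower than in any WT library in 4 of 8 HD libraries (5 of 8 over raw totals) and higher in 2. It reached 248 CPM in the library high in oligodendrocyte markers.

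**Figure D1:**
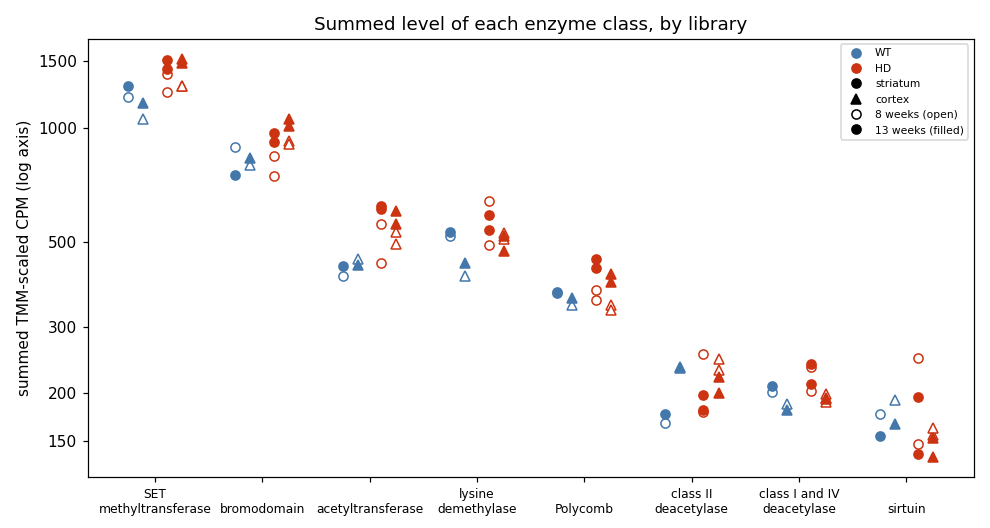
Summed level of each enzyme class in every library, in TMM-scaled CPM on a log axis, with WT libraries in blue and HD libraries in red, striatum as circles and cortex as triangles, and 8 weeks open and 13 weeks filled. SET methyltransferases and acetyltransferases sat above all WT libraries in 7 of 8 HD libraries (4 and 6 of 8 over raw library totals). Bromodomain genes did so in 6 of 8 (4 of 8 over raw totals) and sat below all WT libraries in 1. Sirtuins sat below all WT libraries in 4 of 8 HD libraries and above in 2, and class II deacetylases below in 0 and above in 2.

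The comparison of HD with WT mice asks which of these enzymes differ with the transgene. Over both ages, 15 of 71 members passed an adjusted p of 0.05, 14 of them higher in HD mice, against 10.7% of all 14706 genes tested (6.18% higher and 4.51% lower). Kat6a, Suz12 and Kdm1a were each more than doubled on average, with log2 fold changes of 1.16, 1.14 and 1.06. Brd7 and Kmt2a followed at 0.67 and 0.68. These 5 genes were the members called at each age on its own, and Hdac11 was the single member that fell. Tests were edgeR quasi-likelihood tests that allowed for region, and p-values were adjusted by Benjamini-Hochberg across every gene tested. In bulk tissue, fewer cells of a type and less RNA per cell cannot be told apart.

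Kat6a, an acetyltransferase of histone H3 at chr8:22859535-22943259 (plus strand, mm10), was read at 35.2 CPM in WT striatum at 8 weeks and 33.7 CPM at 13 weeks. HD striatum gave 78.9 and 69.6 CPM at 8 weeks and 96.6 and 93.9 CPM at 13 weeks. Cortex gave 33.6 and 35.6 CPM in WT mice, 54.0 and 71.6 CPM in HD mice at 8 weeks and 88.5 and 73.2 CPM at 13 weeks. The lowest HD library lay above the highest WT library. The log2 fold change was 0.99 (SE 0.16, adjusted p = 0.0114) at 8 weeks and 1.33 (SE 0.17, adjusted p = 0.00176) at 13 weeks. Its call over both ages, adjusted p = 0.000244, was kept in each of 12 fits that left out 1 library.

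Suz12, the PRC2 subunit that holds the complex together, lies at chr11:79993106-80034123 (plus strand). It was read at 27.1 and 33.0 CPM in WT striatum and at 19.4 and 19.7 CPM in WT cortex at 8 and 13 weeks. In HD striatum it reached 51.9 and 54.3 CPM at 8 weeks and 66.8 and 62.7 CPM at 13 weeks. In HD cortex the values were 47.3 and 38.1 CPM and then 59.6 and 51.0 CPM. HD and WT libraries did not overlap. In log2 terms the difference was 1.05 (SE 0.17, adjusted p = 0.0105) at 8 weeks and 1.22 (SE 0.17, adjusted p = 0.00246) at 13 weeks. The catalytic subunits of the same complex did not share this pattern. Ezh2 had a log2 fold change of -0.34 (SE 0.13, adjusted p = 0.108) over both ages, and Ezh1 of -0.16 (SE 0.17, adjusted p = 0.614). Eed, which binds the methyl mark, had 0.19 (SE 0.17, adjusted p = 0.528), and the PRC1 genes Rnf2 and Bmi1 had -0.01 (SE 0.15, adjusted p = 0.977) and 0.08 (SE 0.13, adjusted p = 0.763).

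Kdm1a, which encodes LSD1, a demethylase of histone H3 lysine 4 in the CoREST complex, lies at chr4:136550540-136602723 (minus strand). WT striatum gave 19.0 CPM at 8 weeks and 12.6 CPM at 13 weeks, and WT cortex 18.4 and 17.7 CPM. HD striatum gave 33.8 and 31.6 CPM and then 30.5 and 28.0 CPM. HD cortex gave 47.1 and 47.0 CPM and then 37.2 and 28.1 CPM. Every HD library was above every WT library, and the highest were the 8-week HD cortex pair. Its log2 fold change was 1.07 (SE 0.19, adjusted p = 0.016) at 8 weeks and 1.05 (SE 0.19, adjusted p = 0.00798) at 13 weeks. The 3′ end of Kdm1a overlaps that of Luzp1 on the opposite strand, and whether reads were counted by strand is not given in the sources used here. Luzp1 itself had a log2 fold change of 0.31 over both ages (adjusted p = 0.282).

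Brd7, a bromodomain subunit of a SWI/SNF remodelling complex at chr8:88331039-88362194 (minus strand), was nearly level across WT libraries at 38.7 and 38.8 CPM in striatum and 37.6 and 43.2 CPM in cortex. HD striatum held 65.4 and 64.6 CPM at 8 weeks and 67.7 and 70.2 CPM at 13 weeks, and HD cortex 62.1 and 58.2 CPM and 64.2 and 52.2 CPM. No HD library fell within the WT range. Its log2 fold change was 0.71 (SE 0.15, adjusted p = 0.0298) at 8 weeks and 0.63 (SE 0.15, adjusted p = 0.0243) at 13 weeks. Kmt2a, the MLL1 methyltransferase of histone H3 lysine 4, lies at chr9:44803355-44881296 (minus strand). It was read at 136 and 158 CPM in WT striatum and 98.5 and 138 CPM in WT cortex. HD striatum gave 241 and 161 CPM and then 254 and 209.5 CPM, and HD cortex 190.1 and 188 CPM and then 223 and 217 CPM. The lowest of its HD values, in the library high in oligodendrocyte markers, still lay above the highest WT value. Kmt2a differed by a log2 fold change of 0.75 (SE 0.17, adjusted p = 0.0461) at 8 weeks and 0.61 (SE 0.17, adjusted p = 0.0495) at 13 weeks. These calls by age were less firm than that over both ages. Of 12 fits that left out 1 library, 11 lost the 8-week call and 7 the 13-week call, and the former was also lost with library totals (as was that of Brd7 at 8 weeks).

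The 250 bases before the RefSeq start of 4 of these 5 genes are shown, because they were higher together at both ages. Kat6a is named only. Sequences are from RefSeq. Capitals mark a GC box (GGGCGG or its reverse CCGCCC) or a CCAAT box (CCAAT or its reverse ATTGG), and each sequence reads 5′ to 3′ on the strand of the gene in GRCm38.p6, the NCBI release of mm10.
Suz12 (chr11:79992856-79993105, plus strand): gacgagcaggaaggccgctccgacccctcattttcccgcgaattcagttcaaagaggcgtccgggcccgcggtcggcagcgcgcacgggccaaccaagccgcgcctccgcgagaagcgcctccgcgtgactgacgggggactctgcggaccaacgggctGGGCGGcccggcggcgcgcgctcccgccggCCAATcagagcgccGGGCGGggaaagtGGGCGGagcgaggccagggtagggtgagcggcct
Kdm1a (chr4:136602724-136602973, minus strand): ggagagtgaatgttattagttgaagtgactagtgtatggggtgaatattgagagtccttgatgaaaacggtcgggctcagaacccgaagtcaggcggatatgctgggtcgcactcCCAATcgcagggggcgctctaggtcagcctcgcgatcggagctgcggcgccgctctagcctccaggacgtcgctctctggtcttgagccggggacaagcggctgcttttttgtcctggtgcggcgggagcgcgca
Brd7 (chr8:88362173-88362422, minus strand): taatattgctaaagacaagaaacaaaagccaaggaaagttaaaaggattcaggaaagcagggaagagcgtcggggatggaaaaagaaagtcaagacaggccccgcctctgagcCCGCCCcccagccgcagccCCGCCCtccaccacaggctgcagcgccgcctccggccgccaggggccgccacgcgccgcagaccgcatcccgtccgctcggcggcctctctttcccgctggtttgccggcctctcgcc
Kmt2a (chr9:44881290-44881539, minus strand): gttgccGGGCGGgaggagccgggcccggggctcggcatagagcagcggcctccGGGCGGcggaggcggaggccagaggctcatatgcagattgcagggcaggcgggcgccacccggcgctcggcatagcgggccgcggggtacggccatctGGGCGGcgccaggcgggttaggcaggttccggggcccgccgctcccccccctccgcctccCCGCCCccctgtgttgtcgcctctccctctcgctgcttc

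Suz12 held 3 GC boxes and 1 CCAAT box, Kmt2a 4 GC boxes, Brd7 2 GC boxes and Kdm1a 1 CCAAT box, so neither motif was in all 4. CpG pairs numbered 37 in Suz12, 29 in Kmt2a, 22 in Brd7 and 21 in Kdm1a, against a median of 6 over 32851 RefSeq promoters of the same length. Over the 79 promoters found for 57 members the median was 20 CpG pairs. A GC box was in 62.0% of member promoters and 32.7% of all promoters, and a CCAAT box in 36.7% and 33.8%. Both strands were searched. The motifs can share letters, but no matches overlapped in the sequences shown. A match describes the letters and does not show that a factor binds there.

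**Figure D2:**
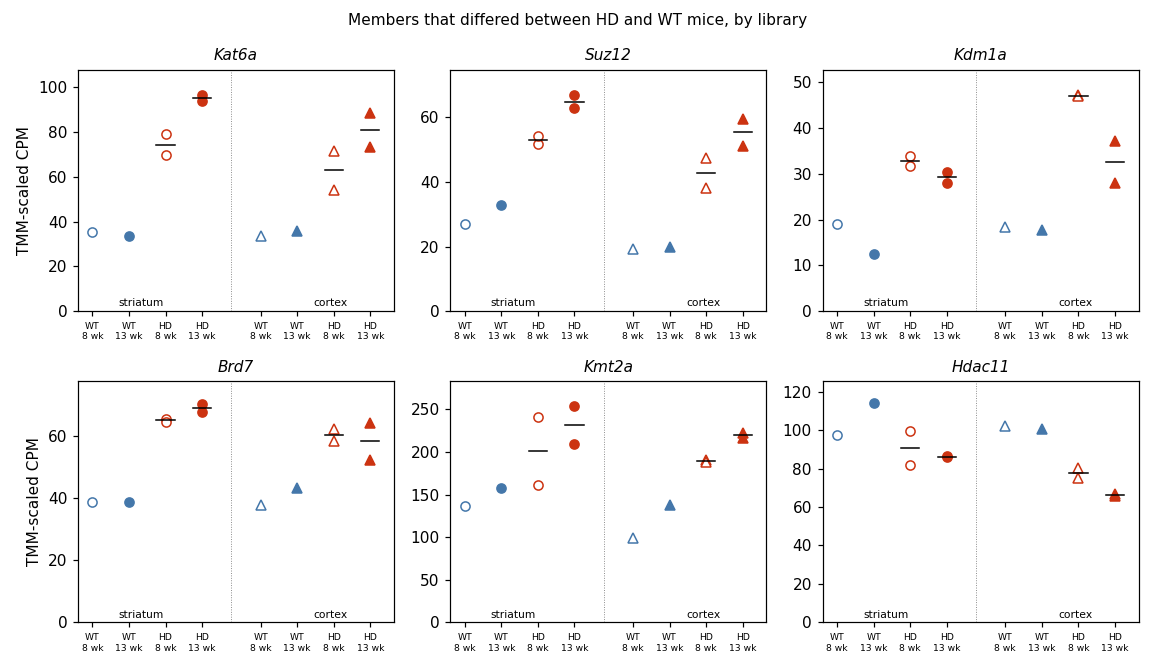
TMM-scaled CPM of 6 members in every library, grouped by region, genotype and age, with WT in blue, HD in red, striatum as circles, cortex as triangles, 8 weeks open and 13 weeks filled, and a line at the mean where a group has 2 libraries. Kat6a, Suz12, Kdm1a, Brd7 and Kmt2a lay above all WT libraries in all 8 HD libraries, and Hdac11 lay below the WT libraries of its age and region in all 4 HD libraries at 13 weeks.

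At 13 weeks 9 of 71 members passed the test, 8 of them higher, against 7.36% of all genes (3.1% higher and 4.26% lower). With library totals in place of TMM the split at 13 weeks was 11 higher and 0 lower, and 619 of 1121 genes called in all were higher. At 8 weeks 5 of 71 passed, all higher, against 2.1% (1.95% higher and 0.15% lower). At 13 weeks 30 members had both HD libraries above the WT library in each region, 42.3% of 71, against 21.4% of all genes. In the same way 8 members lay below WT, 11.3% against 22.6%. At 8 weeks 19 members lay above, 26.8% against 15.4%, and 9 below, 12.7% against 15.1%. The median log2 fold change of the members was 0.22 at 13 weeks and 0.07 at 8 weeks, against 0.01 and -0.01 over all genes. Among 91 other chromatin genes, described below, the medians were 0.20 and 0.05, near those of the members. With the ages together, 10 members had every HD library above every WT library of the same region, 14.1% against 5.71%, and 0 had every one below, against 3.63%. These are descriptions of the list and not tests of it.

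Among deacetylases, Hdac2, a class I enzyme of neuronal chromatin, rose. It ranged from 64.7 to 99.0 CPM in HD libraries and 43.3 to 68.2 CPM in WT libraries, and these ranges overlapped through 1 HD library, replicate 2 of pre-symptomatic striatum. Its log2 fold change was 0.73 (SE 0.19, adjusted p = 0.0377) at 13 weeks and 0.59 (SE 0.13, adjusted p = 0.016) over both ages. Hdac11 moved the other way. It was read at 86.4 and 85.7 CPM in HD striatum and 66.0 and 66.6 CPM in HD cortex at 13 weeks, against 114 and 101 CPM in WT mice. At 8 weeks the HD values were 99.7 and 81.9 CPM in striatum and 80.0 and 74.9 CPM in cortex, against 97.7 and 102 CPM, so that 1 striatal library overlapped. Hdac11 fell, with a log2 fold change of -0.50 (SE 0.13, adjusted p = 0.043) at 13 weeks and -0.38 (SE 0.10, adjusted p = 0.0244) over both ages. With the replicate number as a block neither call held (adjusted p = 0.0941 and 0.1). Hdac1, the other main class I enzyme, had 0.46 (SE 0.24, adjusted p = 0.257). No class II deacetylase and no sirtuin passed, 0 of 6 and 0 of 7, against 10.7% of all genes over both ages. Over both ages the log2 fold change was 0.05 (SE 0.14, adjusted p = 0.855) for Hdac4, -0.02 (SE 0.12, adjusted p = 0.954) for Hdac5 and 0.41 (SE 0.35, adjusted p = 0.516) for Hdac9. Sirt1 had 0.17 (SE 0.15, adjusted p = 0.541) and Sirt2 0.02 (SE 0.26, adjusted p = 0.979).

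Crebbp, which encodes the CBP acetyltransferase, was read at 225 and 221 CPM in HD striatum and 230.1 and 216 CPM in HD cortex at 13 weeks, against 143 and 149 CPM in WT mice. At 8 weeks HD mice had 187 and 129 CPM in striatum and 201 and 195 CPM in cortex, against 116 and 157 CPM. Within each age and region the HD libraries lay above the WT library. Its log2 fold change was 0.61 (SE 0.17, adjusted p = 0.0455) at 13 weeks and 0.50 (SE 0.12, adjusted p = 0.0187) over both ages. Its paralog Ep300 had 0.29 (SE 0.13, adjusted p = 0.181) and Kat2b, the PCAF enzyme, 0.34 (SE 0.28, adjusted p = 0.486), and neither passed.

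Of 15 lysine demethylases, 4 (26.7%) rose over both ages: Kdm1a, Kdm5b, Kdm3b and Kdm2a. Over all genes 6.18% were called higher and 10.7% called in either direction. Kdm5b, which removes methyl groups from histone H3 lysine 4, ranged from 64.5 to 98.3 CPM in HD and 49.6 to 55.8 CPM in WT mice, with no overlap, and had a log2 fold change of 0.57 (SE 0.12, adjusted p = 0.0116). The levels of Kdm3b, from 10.1 to 16.8 CPM in HD and 8.10 to 8.73 CPM in WT mice, were low but also apart, with 0.65 (SE 0.17, adjusted p = 0.03). Kdm2a, at 80.5 to 103 CPM and 69.0 to 76.4 CPM, changed by 0.32 (SE 0.09, adjusted p = 0.0433). Kdm5a and Kdm6b, the demethylase of the Polycomb mark, had 0.24 (SE 0.14, adjusted p = 0.316) and -0.07 (SE 0.28, adjusted p = 0.908). Of 14 SET methyltransferases, Kmt2a and Setd2 rose (14.3%, beside the same 6.18% and 10.7% of all genes). Setd2, which methylates histone H3 lysine 36 in transcribed genes, ranged from 73.6 to 106 CPM in HD and 51.5 to 69.8 CPM in WT mice and had 0.53 (SE 0.12, adjusted p = 0.0141). Kmt2d and Setd7 had 0.36 (SE 0.14, adjusted p = 0.119) and 0.06 (SE 0.18, adjusted p = 0.874).

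Among bromodomain genes, Brd7, Brd3 and Brd1 rose over both ages. Besides Brd7, the log2 fold change was 0.38 (SE 0.10, adjusted p = 0.0262) for Brd3, a reader of acetylated histones, and 0.58 (SE 0.15, adjusted p = 0.0255) for Brd1, a partner of acetyltransferases. Brd1 ranged from 61.4 to 92.2 CPM in HD and 35.8 to 61.7 CPM in WT mice, and only the lowest HD library fell inside the WT range. Brd3 was apart from WT at 13 weeks and overlapped it in cortex at 8 weeks, and its log2 fold change at 13 weeks was 0.65 (SE 0.14, adjusted p = 0.0171). With a replicate block the calls of Brd1 and Brd3 over both ages were lost (adjusted p = 0.0562 and 0.0648), as was that of Kdm3b (adjusted p = 0.059). Brd2, the most abundant, did not pass.

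Of the 15 calls over both ages, those of Kat6a, Suz12, Kdm1a, Brd7 and Kmt2a held in each of the 20 other fits. The remaining 10 were each lost when some single library was left out. Leaving out either WT library of an age left 1 for that age, and fewer members were called at that age and over both ages. Fewer of all genes were called in these fits as well. Without 1 of 5 HD libraries, striatum or cortex replicate 1 or cortex replicate 2 at 13 weeks or either cortex library at 8 weeks, 4 or 5 members were called at 13 weeks. At 8 weeks 2 were called without either 8-week HD cortex library and 3 without replicate 1 of 13-week HD cortex. Calls over all genes fell in these fits too, from 1082 to between 628 and 820 at 13 weeks. At 8 weeks they fell from 309 to 118 and 101 without the 8-week cortex libraries and to 192 without the 13-week one. WT mice gave 1 library per region and age, so the spread between WT mice of a group is not in these tests. The 13-week WT libraries were both female. With sex as a term the 13-week calls of Hdac2 (adjusted p = 0.077), Crebbp (adjusted p = 0.087) and Kmt2a (adjusted p = 0.0944) were lost.

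**Figure D3:**
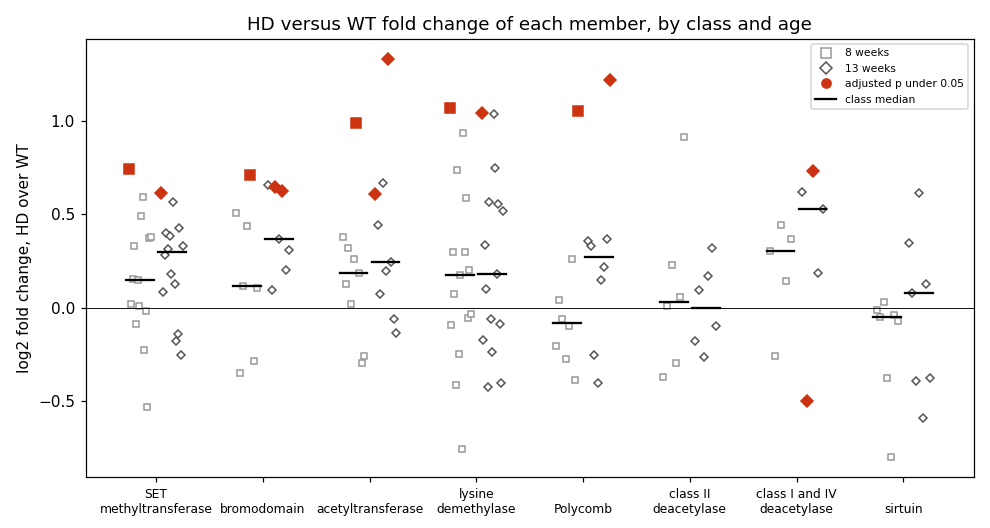
Log2 fold change of HD over WT mice for each of the 71 members by class, at 8 weeks (squares) and 13 weeks (diamonds), with filled red points for an adjusted p under 0.05 and a black line at each class median. At 13 weeks 8 of the 9 called members lie above 0 and Hdac11 is the 1 below, and every bromodomain gene lies above 0.

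By class, the median log2 fold change of HD over WT mice across both ages was highest in the 5 deacetylases of classes I and IV at 0.45 and the bromodomain genes at 0.38. It was 0.23 in acetyltransferases, 0.17 in SET methyltransferases and 0.14 in lysine demethylases. Polycomb genes at 0.05, class II deacetylases at 0.02 and sirtuins at 0.02 were near the median of all genes, -0.01. At 8 weeks 6 of 7 sirtuins and 5 of 8 Polycomb genes had negative values, and at 13 weeks 4 of 7 sirtuins and 6 of 8 Polycomb genes had positive ones.

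Setting post-symptomatic beside pre-symptomatic HD mice asks what moves as disease advances. Bmi1, Brd3 and Kmt2e were higher at 13 than at 8 weeks and Sirt7 was lower. They were 4 of the 70 members tested, or 5.71%, against 6.45% of all 13944 genes (1.93% higher and 4.53% lower), so the share was near the background. With library totals in place of TMM, which shifted the median of all genes by 0.21, the split was 15 higher and 0 lower, and 1224 of 1634 genes called in all were higher. Kdm4d did not pass the filter on low counts. The direction was less even than over all genes. Of the members 53 of 70 (75.7%) had a positive log2 fold change, against 50.3% of all genes, with medians of 0.13 and 0.00. This lean was not particular to the members. Among 91 other chromatin genes, described below, 68.1% were positive, with a median of 0.19. Markers of several cell types moved with stage in the same libraries, and their part in these values was not tested. The 6 astrocyte markers summed to 3280 and 2898 CPM in HD striatum at 8 weeks and 1762 and 1973 CPM at 13 weeks, and in cortex to 4411 and 4409.7 CPM and then 2266 and 2482 CPM. The 8 cortical excitatory neuron markers in cortex summed to 1746 and 1701 CPM and then 1257 and 1241 CPM.

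Bmi1, the PRC1 subunit that restrains the senescence gene Cdkn2a, lies at chr2:18677018-18686629 (plus strand). HD striatum held 25.9 and 28.6 CPM at 8 weeks and 36.5 and 49.9 CPM at 13 weeks. HD cortex held 26.0 and 23.3 CPM and then 37.9 and 48.8 CPM. The stages did not overlap in either region. Between stages it rose by a log2 fold change of 0.75 (SE 0.15, adjusted p = 0.0206). WT libraries were read at 25.7 and 35.1 CPM in striatum and 34.0 and 32.4 CPM in cortex at 8 and 13 weeks, all below the lowest 13-week HD value. Against WT mice at 13 weeks the log2 fold change was 0.36 (SE 0.19, adjusted p = 0.296).

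Brd3, at chr2:27445579-27507662 (minus strand), rose from 139 and 128 CPM to 159.6 and 162 CPM in HD striatum and from 113 and 119 CPM to 185 and 187 CPM in HD cortex. WT libraries ranged from 104 to 118 CPM. The log2 fold change between stages was 0.49 (SE 0.11, adjusted p = 0.0296). By region it was 0.67 (SE 0.14, adjusted p = 0.0817) in cortex and 0.30 (SE 0.14, adjusted p = 0.406) in striatum, and neither passed on its own.

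Kmt2e lies at chr5:23434441-23504235 (plus strand), with its 3′ end overlapping that of Srpk2 on the opposite strand. It moved from 348 and 276 CPM to 415 and 421 CPM in HD striatum and from 329 and 335 CPM to 422 and 461 CPM in HD cortex, with no overlap. WT libraries ranged from 325 to 360.0 CPM. The log2 fold change was 0.43 (SE 0.11, adjusted p = 0.042), and that of Srpk2 was -0.04 (adjusted p = 0.86). Sirt7, a sirtuin of the nucleolus, lies at chr11:120618372-120625240 (minus strand) and overlaps Mafg on the same strand at its 5′ end. It fell from 35.6 and 26.4 CPM to 18.9 and 19.2 CPM in HD striatum and from 28.5 and 27.3 CPM to 20.5 and 18.4 CPM in HD cortex. The stages did not overlap. WT libraries were read at 32.1 and 26.7 CPM in striatum and 29.6 and 23.5 CPM in cortex. The log2 fold change of Sirt7 in HD mice was -0.60 (SE 0.14, adjusted p = 0.039), and that of Mafg was 0.16 (adjusted p = 0.579).

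None of the 4 changes was shown to be particular to HD mice. The age change in HD mice differed from that in WT mice by a log2 of 0.56 (SE 0.27, adjusted p = 0.582) for Bmi1, 0.53 (SE 0.19, adjusted p = 0.41) for Brd3, 0.40 (SE 0.19, adjusted p = 0.57) for Kmt2e and -0.31 (SE 0.24, adjusted p = 0.794) for Sirt7. In that test 0 members and 0.116% of all genes passed. At an unadjusted p under 0.05 there were 5 members, 7.04% against 8.92% of all genes. In WT mice alone 0 members and 0.0136% of all genes changed with age. There 1 member had an unadjusted p under 0.05, 1.41% against 1.82% of all genes. DESeq2 called 0 members in either test, against 231 genes in all for the difference and 11 for WT mice. All 4 calls rest on few libraries. Each was lost in at least 5 of the 8 fits that left out 1 HD library, and 0 members passed without replicate 2 of post-symptomatic cortex, the library highest in choroid plexus markers. The same held without post-symptomatic cortex replicate 1, post-symptomatic striatum replicate 2 or either pre-symptomatic cortex library. Without post-symptomatic striatum replicate 1 there was 1 call, without pre-symptomatic striatum replicate 1 there were 7 and without its replicate 2 there were 6. Calls over all genes moved the same way, from 900 to between 211 and 213 without any 1 cortex library. They numbered 350 and 500 without replicates 1 and 2 of post-symptomatic striatum, and 1482 and 1518 without those of pre-symptomatic striatum.

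**Figure D4:**
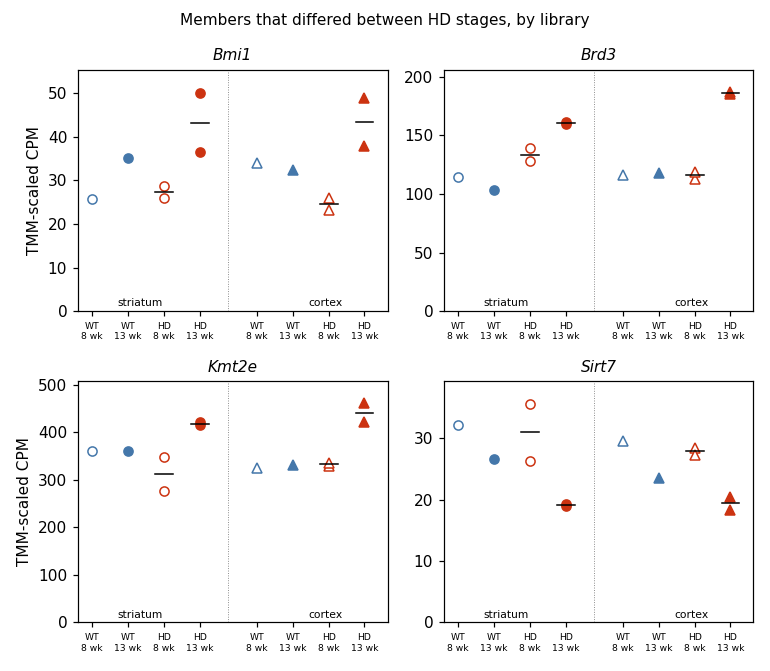
TMM-scaled CPM of Bmi1, Brd3, Kmt2e and Sirt7 in every library, with WT in blue, HD in red, striatum as circles, cortex as triangles, 8 weeks open and 13 weeks filled, and a line at the mean of 2 libraries. In HD mice the 13-week values of Bmi1, Brd3 and Kmt2e lie above the 8-week values in both regions and those of Sirt7 below.

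In all, 13 members had every 13-week HD library above every 8-week one within both regions, 18.6% of 70 against 9.35% of all genes. The paralogs CBP and p300 were both among them. Beyond the 3 called, they were Brd1, Crebbp, Eed, Ep300, Kat6a, Kmt2c, Rbbp4, Rnf2, Sirt1 and Suz12. Those lower in this way were Hdac5, Kdm1a, Sirt3 and Sirt7, 5.71% against 11.3%. Crebbp had 0.35 (SE 0.14, adjusted p = 0.159), Ep300 0.41 (SE 0.16, adjusted p = 0.151) and Sirt1 0.52 (SE 0.19, adjusted p = 0.132) as log2 fold changes. Suz12 had 0.34 (SE 0.12, adjusted p = 0.131) and Kat6a 0.37 (SE 0.13, adjusted p = 0.111). Kdm1a, higher in HD than WT mice at both ages, had -0.34 (SE 0.15, adjusted p = 0.208) between stages, Hdac5 -0.33 (SE 0.16, adjusted p = 0.243) and Sirt3 -0.30 (SE 0.13, adjusted p = 0.194). With the regions fitted together, all 8 Polycomb genes and all 7 bromodomain genes had positive values, with class medians of 0.27 and 0.20. Within striatum 7 of 8 and 7 of 7 were positive, and within cortex 7 of 8 and 4 of 7. By region 0 members passed in striatum and 0 in cortex, against 0.16% and 0.591% of all genes, and 0 in the test of a difference between the regions. At an unadjusted p under 0.05 these tests had 6, 11 and 1 members, 8.57%, 15.7% and 1.43% against 13%, 14.3% and 3.61% of all genes. DESeq2 called 0, 2 and 0 members and 447, 558 and 17 genes in all. Without pre-symptomatic striatum replicate 1 the counts were 8 in striatum and 4 in cortex, and without its replicate 2 they were 3 and 5. Calls over all genes rose as well, to 1083 and 1202 without replicate 1 and to 1054 and 1197 without replicate 2, from 23 and 85.

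Striatum and cortex differed most clearly in Ezh2, Kmt2b, Hdac4 and Sirt3. These were the members whose 6 striatal and 6 cortical libraries did not overlap, 2 of 71 higher and 2 lower (2.82% each), against 2.68% and 5.09% of all genes. Of the 71 members 10 passed the test (14.1%), 7 of them higher in striatum, against 20.6% of all genes (8.51% higher and 12.1% lower).

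Ezh2, the main methyltransferase of PRC2 at chr6:47530139-47595341 (minus strand), was read at 44.7 and 54.9 CPM in WT striatum and 42.0 and 30.5 CPM and 41.3 and 45.0 CPM in HD striatum at 8 and 13 weeks. Cortex gave 22.3 and 27.8 CPM in WT mice and 15.7 and 22.0 CPM and 20.4 and 19.9 CPM in HD mice. The lowest striatal value was that of the library high in oligodendrocyte markers. Ezh2 differed by a log2 fold change of 1.01 (SE 0.12, adjusted p = 0.000109). Ezh1, which takes its place in mature cells, had 0.07 (SE 0.16, adjusted p = 0.826). Kmt2b, a methyltransferase of histone H3 lysine 4 at chr7:30568858-30588726 (minus strand), ranged from 23.6 to 32.1 CPM in striatum and 16.1 to 20.8 CPM in cortex, and its log2 fold change was 0.60 (SE 0.11, adjusted p = 0.00279).

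Hdac4, a class II deacetylase that shuttles between cytoplasm and nucleus at chr1:91928779-92195699 (minus strand), was higher in cortex. Striatum gave 14.9 and 10.4 CPM in WT mice and 18.8 and 12.2 CPM and 12.3 and 12.1 CPM in HD mice. Cortex gave 29.6 and 23.0 CPM in WT mice and 26.7 and 31.0 CPM and 21.8 and 23.5 CPM in HD mice. In cortex the values of each genotype were lower at 13 than at 8 weeks, and in HD mice the change between stages was -0.33 (SE 0.17, adjusted p = 0.275). On the log2 scale striatum less cortex was -0.95 (SE 0.13, adjusted p = 0.000348). Sirt3, the main mitochondrial deacetylase at chr7:140863666-140882309 (minus strand), was also lower in striatum, from 20.2 to 25.5 CPM against 26.0 to 38.2 CPM, with -0.50 (SE 0.10, adjusted p = 0.00413). Its 5′ end overlaps Psmd13 on the opposite strand, which had a log2 fold change of -0.03 (adjusted p = 0.844). The calls of these 4 genes held in all 20 other fits.

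**Figure D5:**
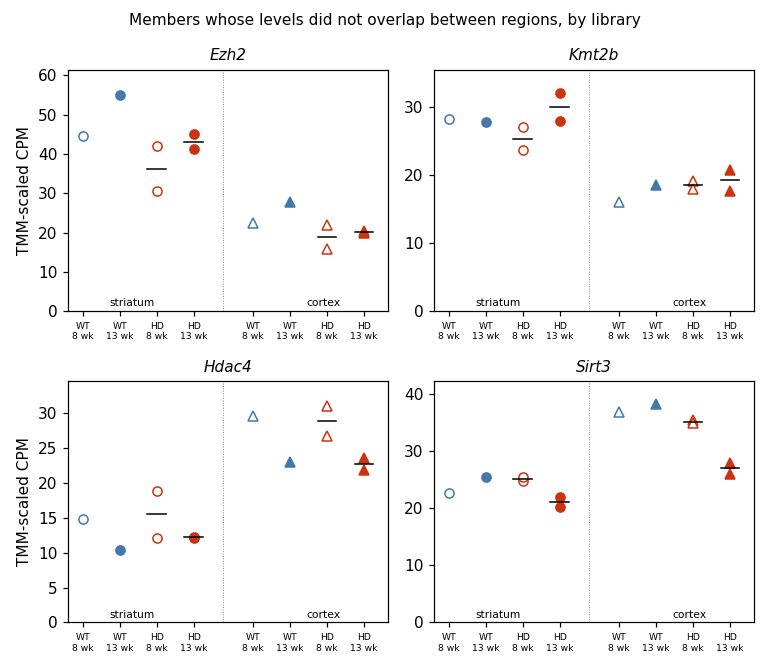
TMM-scaled CPM of Ezh2, Kmt2b, Hdac4 and Sirt3 in every library, with WT in blue, HD in red, striatum as circles, cortex as triangles, 8 weeks open and 13 weeks filled, and a line at the mean of 2 libraries. Every striatal value of Ezh2 and Kmt2b is above every cortical value, and the reverse holds for Hdac4 and Sirt3.

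The other 6 members called overlapped between regions, and each call was lost in at least 2 of the 12 fits that left out 1 library. The bromodomain gene Brd9 was lower in striatum, -0.53 (SE 0.13, adjusted p = 0.0138). Suz12, the demethylases Kdm4a and Kdm3a, the deacetylase Sirt1 and the acetyltransferase Kat2b were higher there, with log2 fold changes from 0.38 for Suz12 to 0.83 for Kat2b. Kat2b was highest at 34.9 CPM in the library high in oligodendrocyte markers, and without that library its log2 fold change was 0.52. Kdm3a, whose call was lost in 10 of 12 fits without 1 library, reached 35.0 CPM in the 8-week WT striatum against 11.0 to 17.9 CPM over the HD libraries. The library high in oligodendrocyte markers also read Hdac9 at 55.0 CPM against 12.6 CPM in replicate 1, Setd7 at 142 CPM against 61.1 CPM and Sirt2 at 170.0 CPM against 66.0 CPM. That library was also high in thalamic and choroid plexus markers. Its 8 cortical excitatory neuron markers summed to 418 CPM, against 75.4 to 203 CPM in the other striatal libraries. The part of any of these cell types in the values was not tested. With this library the log2 fold change of Hdac9 was -0.76 (SE 0.33, adjusted p = 0.137) and that of Setd7 -0.35 (SE 0.17, adjusted p = 0.181). Without it Hdac9 had -1.16 (adjusted p = 0.00128) and Setd7 -0.56 (adjusted p = 0.00124), and 16 members passed in all. Counts fell to 6 without replicate 2 of either HD cortex group. They also fell without any 1 WT library, which left 1 for its age. Calls over all genes moved the same way, from 3024 to 3709 without the library high in oligodendrocyte markers. They were 2635 and 2341 without replicate 2 of 13-week and 8-week HD cortex, and fell without each WT library too. The sums of striatal projection neuron and cortical neuron markers also separated the regions, and their part in the differences of Ezh2, Kmt2b, Hdac4 and Sirt3 was not tested.

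Partners of these enzymes were read from a list of 93 other chromatin genes. Between HD stages 8 of 91 tested passed (8.79%, against 6.45% of all genes), 7 of them higher. Sin3b, a scaffold of deacetylase complexes, rose by a log2 fold change of 1.03 (SE 0.12, adjusted p = 0.00346), and Cbx7, a PRC1 reader of the Polycomb mark, by 0.76 (SE 0.14, adjusted p = 0.0157), whereas Cbx6 fell, -0.64 (SE 0.13, adjusted p = 0.0175). The call of Sin3b held in every fit, whereas those of Cbx7 and Cbx6 were lost in 4 and 5 of the 8 fits without 1 HD library. Over both ages 11 of 91 differed between HD and WT mice (12.1%, against 10.7%), 9 of them higher. Gatad2b, a subunit of the NuRD deacetylase complex, had the largest change at 1.81 (SE 0.18, adjusted p = 0.000253). Pcgf3, a PRC1 relative of Bmi1, had 1.20 (SE 0.20, adjusted p = 0.0027) and the demethylase-like Jmjd1c 1.03 (SE 0.14, adjusted p = 0.00103), whereas Cbx6 was lower, -0.65 (SE 0.11, adjusted p = 0.00362). Between regions 12 of 91 passed (13.2%, against 20.6%), 5 of them higher in striatum, among them Jarid2, a PRC2 cofactor, at 0.58 (SE 0.10, adjusted p = 0.00128). Rcor2, a CoREST partner of Kdm1a, was lower in striatum, -1.13 (SE 0.15, adjusted p = 0.000203).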

How the data were processed

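RNA of mouse striatum and cortex was made into 3′ end libraries with the Lexogen Quant-Seq kit. The authors deposited raw read counts per gene for each of the 12 libraries, and the submitters' processing notes name Bowtie2, bedtools and mm10. Versions, annotation and the use of strand in counting are not given in the sources used here. Groups were taken from the labels. Setd8 is the listed symbol of the gene now named Kmt5a.

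Counts were fitted in R 4.3.3 with edgeR 4.0.16 (TMM scaling, genes kept by filterByExpr at a minimum count of 10, robust quasi-likelihood fits). Terms were region with stage for HD mice, and region with genotype and age for all libraries. P-values were adjusted by Benjamini-Hochberg over all genes tested, with a threshold of 0.05, and SE is the fold change divided by the square root of F. The 8 HD libraries left 13944 genes in the stage test and 14392 in the tests by region, and all 12 left 14706. The procedure was tested on simulated data with 200 changed genes. Alternatives were DESeq2 1.42.0, its size factors, no filter, a replicate block, limma 3.58.1 with a random block, Rn45s left out, and each library left out. Library totals without TMM and sex as a term were added after seeing the data. Replicate libraries of a group differed well beyond sampling noise, with a chi-square over its degrees of freedom of 7.23 to 78.2, so none was counted as a duplicate.

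The members and lists were chosen with earlier results of these data known. Named were members with an adjusted p under 0.05, 26 much-studied members in at least 1 comparison, the highest and lowest of each class, and at most 5 called genes of the wider chromatin list per comparison. One called member is counted but not reported here by name. Luzp1, Srpk2, Mafg and Psmd13 were named as overlapping genes after their values were seen. Gene positions are from GENCODE M21 (GRCm38) and promoters from RefSeq. Depth was 8814386 to 12091201 counts per library, and no interval covers the spread between WT mice of a group.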

Additional observations from a re-analysis of the deposited data

Results flagged for a closer look

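A few members moved one way in every HD striatum library and the other way in every HD cortex library, each relative to the matching WT library. With 1 WT library per region and age, these differences between regions were not tested. At 8 weeks the log2 ratio of HD to WT in striatum less that in cortex was 0.55 for Bmi1, -0.96 for Brd2, 0.46 for Brd9, 1.73 for Hdac10, -1.89 for Kdm3a and -1.51 for Kdm6b. It was -0.36 for Kmt2b, -0.23 for Kmt2e, 0.21 for Sirt3 and -2.38 for Sirt4. Sirt4 and Hdac10 were among the members read at the lowest levels. At 13 weeks the same difference was 0.76 for Hdac9, 0.35 for Rbbp4 and -0.84 for Setd4. Opposite signs of this kind, counting also members not named here, were found in 13 of 71 members (18.3%) at 8 weeks and 19.1% of all genes, and in 6 of 71 (8.45%) at 13 weeks and 14.5% of all genes.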

How the results depend on the processing

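Of 1480 values of 80 fold changes under the alternatives, 1263 kept their direction and side of the threshold, 201 lost the call, 16 gained one and 0 changed sign. The 80 were every call of a member and further chosen values, and 52 of them were called in the main fits. Called values lie away from 0 and the fits share most libraries, so the lack of sign changes says little about stability. Not every value printed here was among the 80. Of 43 calls of members, 9 held in every fit. With library totals without TMM, 15 members passed between HD stages, 1 in the stage test of cortex and 3 between HD and WT mice at 8 weeks. Calls over all genes in these tests were 1634, 48 and 225. With DESeq2 2 passed in cortex, where 558 genes were called in all. Leaving out 1 library gave 0 to 7 calls between HD stages, 0 to 8 in striatum alone, 0 to 5 in cortex alone and 0 to 0 for the difference between regions. It gave 1 to 12 calls between HD and WT mice at 13 weeks, 0 to 7 at 8 weeks and 5 to 17 over both ages. It gave 0 to 0 for the age change in WT mice and its difference from HD mice, and 5 to 16 for the regions. Calls over all genes varied with the library left out in each of these tests. A group left with 1 library was assumed to vary like the others.

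Replicate differences of the HD groups correlated at 0.025 to 0.27, not all over 0.1, and no label ties equal numbers to 1 mouse, so the numbers were not taken as pairs. A low correlation does not show that the mice differed, and the sex read from the counts matched between striatum and cortex of each number. If these shared a mouse, the main fits counted its regions as separate, and limma with a random block allowed for it. That limma fit lost 2 calls, Sirt7 between HD stages and Kat2b between regions (adjusted p = 0.0519). With a replicate block 5 members passed between HD stages, 0 in each region and in their difference, 9 between HD and WT mice at 13 weeks, 6 at 8 weeks, 12 over both ages and 9 between regions. Calls over all genes were 1030 between HD stages, 36 in striatum, 109 in cortex and 0 in their difference. Between HD and WT mice they were 885 at 13 weeks, 314 at 8 weeks and 1099 over both ages (1572 in the main fit), and between regions 3154. The block ended the calls of Hdac11 at 13 weeks and of Hdac11, Brd1, Brd3 and Kdm3b over both ages, and that of Kdm3a between regions (adjusted p = 0.052). The block also separates male from female HD mice. The spread between WT mice of a group cannot be measured here, and members under about 10 CPM, such as Kdm4d, Sirt4 and Setd4, are the least precise.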
